A study of Mus musculus with 15 samples.

Results

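Brain and spinal cord are the 2 parts of the mouse central nervous system among 15 tissue and embryo libraries of small RNA, and their 2 libraries were picked by the tissue label alone. Both were made from total RNA of a commercial mouse panel. The labels give neither strain, age, sex and number of animals, nor which parts of the brain or which segments of the cord were taken, and no group was treated or mutated. Libraries were built by AQ-seq, in which adapters with random ends are ligated to size-selected small RNAs so that ligation favours fewer sequences. The other 13 libraries serve only as background.

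There is 1 library per tissue, so no difference below has a replicate check and none carries a p-value. Intervals are 95% intervals, and with 1 library per tissue they cover counting error only. They treat each read as independent, which reads copied by PCR are not, so they may be too narrow. The brain library held 3161463 reads of miRNAs with 1047 mature names, and the spinal cord library held 2078039 reads with 1065 names. Over all 15 libraries the depth ran from 148052 reads in testis to the 3161463 of brain. A level is a share of a library's miRNA reads, scaled as counts per 1e6 reads (CPM), and the limit that a count of 0 allows, 3 reads, is 0.949 CPM in brain and 1.44 CPM in spinal cord.

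A miRNA is cut from a hairpin that gives mature strands named 5p and 3p after the arm they come from. A strand pairs with target mRNAs mainly through its seed, bases 2 to 8. Several miRNAs mark cell types of the nervous system. In neurons miR-124, miR-128 and miR-9 are abundant and miR-132 is induced by activity, while miR-219 and miR-338 promote the maturation of oligodendrocytes, the cells that form myelin. The miR-10 and miR-196 families lie within the Hox gene clusters, whose genes are used at successive levels of the body axis, in the hindbrain and cord but not in the forebrain. In bulk RNA, fewer cells of a type and less of a miRNA per cell cannot be told apart.

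The mature sequences below are those on which the comparison turns, from RefSeq (GRCm38.p6), written 5′ to 3′ with the seed in capitals. The first set holds the miRNAs of the Hox clusters, which differed most between the libraries. miR-10a-5p and miR-10b-5p share a seed and differ by U12A, and miR-196a-5p and miR-196b-5p share another and differ by A12C, with positions counted from 1 at the 5′ end and the first-named miRNA's base first.
miR-10a-5p: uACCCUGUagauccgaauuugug
miR-10b-5p: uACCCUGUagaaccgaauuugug
miR-196a-5p: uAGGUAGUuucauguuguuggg
miR-196b-5p: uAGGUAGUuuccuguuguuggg
miR-615-3p: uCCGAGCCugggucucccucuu

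The second set holds the oligodendrocyte and neuronal miRNAs. miR-132-3p and miR-212-3p share the seed AACAGUC.
miR-338-3p: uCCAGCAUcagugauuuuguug
miR-219a-5p: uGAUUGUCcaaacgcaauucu
miR-128-3p: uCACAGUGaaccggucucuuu
miR-132-3p: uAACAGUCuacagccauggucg
miR-212-3p: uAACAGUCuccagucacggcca

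The third set holds families whose members differed together between the libraries, and miR-34a-5p. The 5 members of the miR-200 family fall into 2 seeds, AACACUG and AAUACUG, and miR-200a-3p differs from miR-141-3p by C17A and U22G.
miR-200a-3p: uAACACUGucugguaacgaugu
miR-141-3p: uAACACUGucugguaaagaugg
miR-200b-3p: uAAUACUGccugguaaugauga
miR-200c-3p: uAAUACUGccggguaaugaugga
miR-429-3p: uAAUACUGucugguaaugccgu
miR-221-3p: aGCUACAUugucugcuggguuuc
miR-222-3p: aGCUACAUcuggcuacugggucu
miR-34a-5p: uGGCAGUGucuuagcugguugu

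The fourth set holds both arms of the 2 hairpins whose leading arm differed between the libraries.
miR-1298-5p: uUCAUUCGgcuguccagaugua
miR-1298-3p: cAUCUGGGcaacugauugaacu
miR-448-5p: gAACAUCCugcauagugcugcc
miR-448-3p: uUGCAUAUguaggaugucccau

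The profiles of brain and spinal cord were the second closest of all pairs of libraries. Of the reads of either library, 20.3% would have to move to other names to turn one profile into the other, against a median of 56.0% over all pairs of the 15 libraries. The closest pair was the 15- and 17-day embryos at 13.9%, and brain and eye stood at 43.1%. miR-128-3p and miR-132-3p, which mark neurons, were highest in brain and second in spinal cord of all 15 libraries, and the oligodendrocyte markers miR-219a-2-3p and miR-338-3p were highest in spinal cord and second in brain. Among the 10 most abundant names of each library 8 were shared, and these 10 held 46.5% of brain and 39.6% of spinal cord reads. miR-9-5p was the most abundant miRNA of both, with 10.5% of brain and 7.77% of spinal cord reads. Of the 20.3%, 8 names made up 50.1%: miR-128-3p, miR-124-3p, miR-9-5p and miR-26a-5p were higher in brain, and miR-338-3p, miR-10b-5p, miR-125b-5p and miR-451a were higher in spinal cord.

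Of 1195 names with a read in either library, 511 had a mean of at least 10 CPM over both and were compared. Of these, 81 (15.9%) were at least 2-fold higher in spinal cord, 41 (8.02%) were at least 2-fold lower, and 389 were within 2-fold, so that 23.9% were called in either direction. The median log2 ratio of spinal cord over brain was 0.20. This split depends on the scaling: with the TMM factors of edgeR, which shift every log2 ratio by -0.21, there were 58 higher and 55 lower names, and with the size factors of DESeq2, which shift it by -0.32, there were 49 and 65. Differences of 4-fold or more numbered 19 higher and 17 lower, and those of 16-fold or more numbered 10 and 6. The 81 higher names held 3.63% of brain and 15.96% of spinal cord reads, and the 41 lower names held 14.9% and 4.80%.

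**Figure D1:**
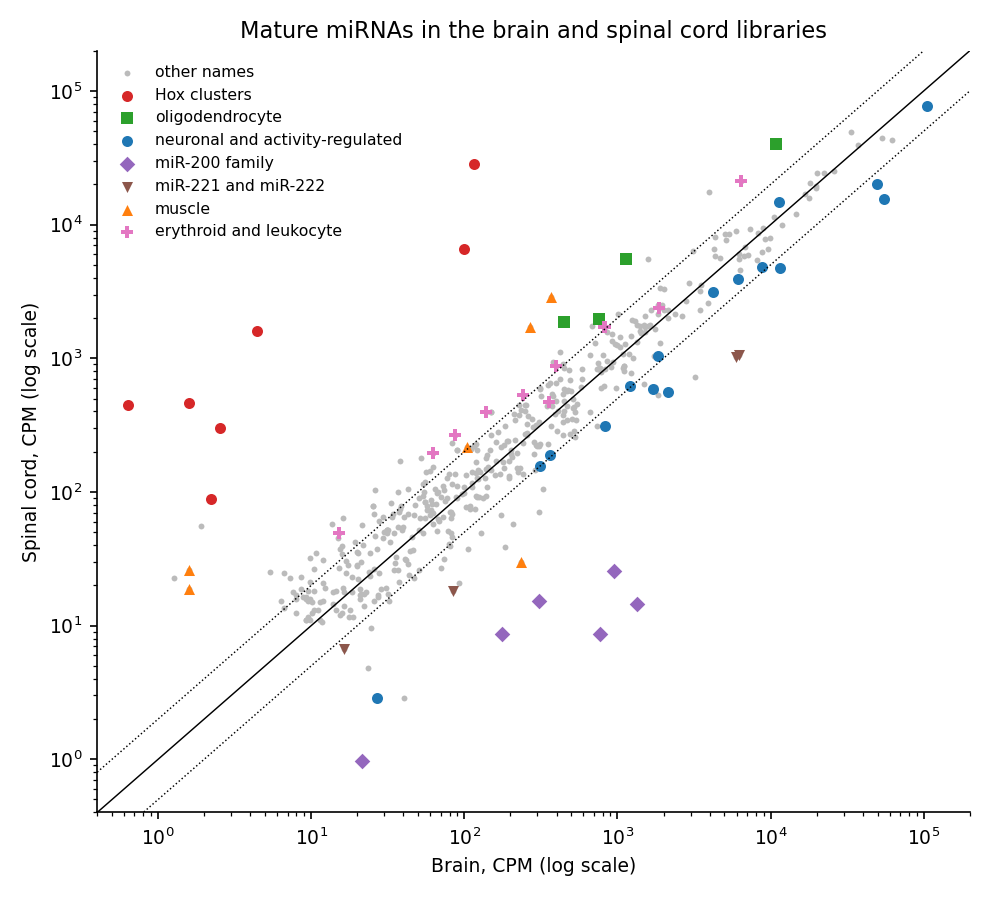
Level of each of the 511 compared miRNAs in the brain library (x axis, CPM, log scale) and in the spinal cord library (y axis, CPM, log scale), with the line of equal levels (solid) and 2-fold either way (dotted). The 7 Hox cluster strands lie far above the line, the 6 strands of the miR-200 family lie far below it, and most other points lie between the dotted lines.

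The miRNAs of the Hox clusters set the libraries apart most. Of 11 names on that list, 7 passed the limit of 10 CPM, and all 7 were between 39.99-fold and 707-fold higher in spinal cord, with a median log2 ratio of 7.94 against 0.20 for all names compared. Only miR-10a-5p and miR-10b-5p were above 10 CPM in brain. The other names, at 0.633 to 4.43 CPM there, passed through spinal cord alone, so that the filter fixed their call as higher. The list held 227 CPM in brain and 37857 CPM in spinal cord. The same 7 names were called higher with both other scalings.

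miR-10b-5p comes from a hairpin at chr2:74726070-74726137 on the plus strand (GRCm38), in introns of Hoxd3 and Hoxd4. It had 365 reads (115 CPM) in brain and 58991 reads (28388 CPM) in spinal cord, a ratio of 246 (222 to 273). The spinal cord was the highest of all 15 libraries, above kidney with 13148 CPM, and brain ranked 14 of 15. miR-10a-5p, from chr11:96317165-96317274 on the plus strand, had 316 reads (99.95 CPM) in brain and 13607 reads (6548 CPM) in spinal cord, a ratio of 65.5 (58.6 to 73.5). Here kidney was above spinal cord, with 21359 CPM, and brain was again 14 of 15. The minor arms followed their partners: miR-10b-3p went from 8 to 625 reads and miR-10a-3p from 7 to 184.

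The makeup of the miR-10 pair differed as well. miR-10b-5p took 53.6% (49.8 to 57.4) of the reads of the pair in brain and 81.3% (81.0 to 81.5) in spinal cord. The pair stood at 54.8% in the 11-day embryo, 38.1% in kidney and 5.03% in liver, and at 83.2% in eye and 84.7% in testis. The seed they share, ACCCUGU, accounted for 0.0215% of brain and 3.49% of spinal cord reads, a ratio of 162 (150 to 175).

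The miR-196 family and miR-615 were near the limit of detection in brain. miR-196a-5p has hairpins at chr11:96265164-96265265 and, in an intron of Hoxc5, at chr15:102973350-102973434, both on the plus strand. It had 2 reads in brain and 930 reads (448 CPM) in spinal cord, a ratio of 707 (195 to 5850.2). miR-196b-5p, whose hairpin at chr6:52230081-52230165 on the minus strand overlaps an exon of Hoxa9, had 5 reads in brain and 960 reads (462 CPM) in spinal cord, a ratio of 292 (125 to 902). miR-615-3p, whose hairpin is known to lie in an intron of Hoxc5, had 14 and 3331 reads (4.43 and 1603 CPM), a ratio of 362 (215 to 663).

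For these 3 names the 11-day embryo was above spinal cord, with 1752 CPM of miR-196a-5p, 2860.3 CPM of miR-196b-5p and 1827 CPM of miR-615-3p. Kidney was also above spinal cord for miR-196a-5p (1480 CPM) and miR-196b-5p (2191 CPM), but not for miR-615-3p (263 CPM). Some rarer strands of these miRNAs had no read in brain, so they could only come out higher in spinal cord. miR-615-5p had 18 reads in spinal cord, at least 9.13-fold higher against the limit of 3 reads in brain. miR-196a-2-3p had 11 reads (at least 5.58-fold higher) and miR-196b-3p had 8 (at least 4.06-fold higher).

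**Figure D2:**
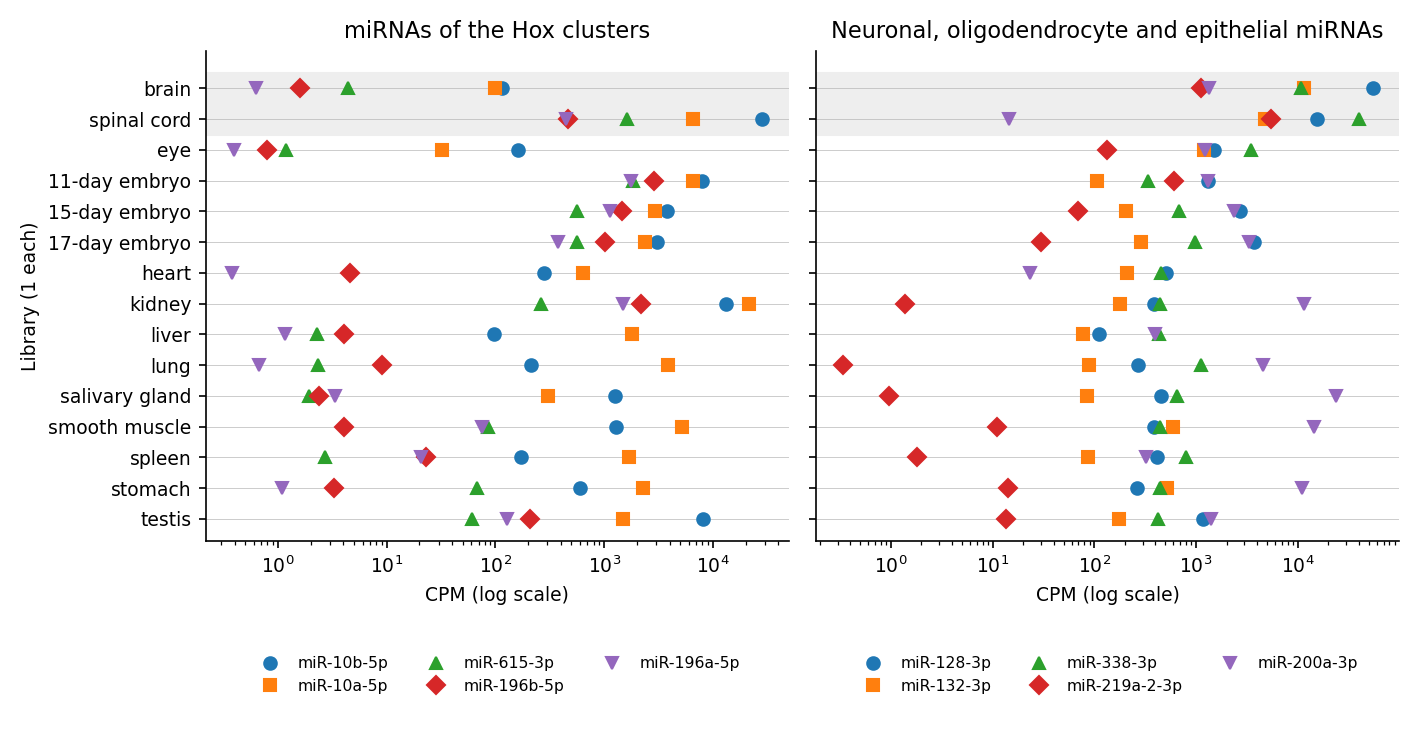
Level (x axis, CPM, log scale) of 5 Hox cluster miRNAs (left) and of 5 neuronal, oligodendrocyte and epithelial miRNAs (right) in each of the 15 libraries (y axis, 1 library each, brain and spinal cord shaded). A library with no read of a name has no point. The Hox cluster miRNAs are low in brain and eye and high in spinal cord, kidney and the embryos, and miR-200a-3p is lowest in spinal cord.

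Oligodendrocyte miRNAs were higher in spinal cord. Of 7 names on the list 4 passed the limit, all 4 were at least 2-fold higher under each scaling, and their median log2 ratio was 1.97. Among all 511 names 15.9% were higher by share of total reads, and the median was 0.20. miR-338-3p, cut from an intron of Aatk at chr11:120014765-120014862 on the minus strand, had 10867 CPM in brain and 40263 CPM in spinal cord, a ratio of 3.70 (3.66 to 3.75). The next library was eye with 3495.5 CPM, so that both parts of the central nervous system stood above all other libraries. Its minor arm miR-338-5p had 448 and 1860 CPM, a ratio of 4.15 (3.91 to 4.42).

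miR-219a-2-3p had 1129.9 CPM in brain and 5516 CPM in spinal cord, a ratio of 4.88 (4.70 to 5.07). miR-219a-5p, which can come from the hairpins of miR-219a-1 and miR-219a-2, had 762 and 1972 CPM, a ratio of 2.59 (2.46 to 2.72). The strand specific to the other hairpin, miR-219a-1-3p, had 7 reads in brain and 2 in spinal cord, too few to compare. Summed over the list, the level was 13210 CPM in brain and 49612 CPM in spinal cord, against 481 to 3876 CPM in the other 13 libraries.

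Neuronal miRNAs were lower in spinal cord or within 2-fold. Of 13 names 12 passed the limit, 4 were at least 2-fold lower and 0 were higher, with a median log2 ratio of -0.90. Over all 511 names 8.02% were lower and 15.9% higher, with a median of 0.20. With the TMM and DESeq2 scalings 8 of the 12 were at least 2-fold lower and the median was -1.12 and -1.23. miR-128-3p, cut from introns of R3hdm1 and Arpp21, had 54694 CPM in brain and 15531 CPM in spinal cord, 3.52-fold lower (3.48 to 3.56). No other library held more than 3749.5 CPM. The strands that tell its hairpins apart were rare: miR-128-1-5p had 85 reads in brain and 6 in spinal cord, 9.31-fold lower (4.11 to 26.1), and miR-128-2-5p had 33 and 6 reads. miR-128-1-5p, 1 of the 4 lower names, passed the limit through brain alone (26.9 and 2.89 CPM), which fixed its call as lower.

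miR-124-3p, which represses non-neuronal transcripts in neurons, had 49811 CPM in brain and 20215 CPM in spinal cord, 2.46-fold lower (2.44 to 2.49), and eye was above both with 92103 CPM. miR-153-3p had 2142 and 558 CPM, 3.84-fold lower (3.61 to 4.09). The remaining 8 names lay within 2-fold. Among these, miR-138-5p, which acts in dendritic spines, had 8738 and 4781 CPM, and miR-137-3p had 6087 and 3922 CPM. miR-9-3p had 11410 CPM in brain and 14764 CPM in spinal cord, the only one of the 12 with a ratio above 1 (1.29, 1.27 to 1.31). Its partner from the same hairpin, miR-9-5p, was 1.35-fold lower (1.34 to 1.36), and the 5p share of mir-9 was 90.2% in brain and 84.0% in spinal cord.

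The neighbouring miR-132 and miR-212, induced in neurons by activity through the transcription factor CREB, were lower in spinal cord for all 4 strands under each scaling, with a median log2 ratio of -1.35. By share of total reads 8.02% of all 511 names were at least 2-fold lower. miR-132-3p had 11531 CPM in brain and 4761 CPM in spinal cord, 2.42-fold lower (2.37 to 2.48), against at most 1189 CPM elsewhere. miR-132-5p was 2.91-fold, miR-212-3p 2.68-fold and miR-212-5p 2.01-fold lower.

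miR-218, enriched in motor neurons, did not differ by 2-fold as a whole: miR-218-5p had 7115 CPM in brain and 5932 CPM in spinal cord. Its 2 hairpins, in introns of Slit2 (miR-218-1) and Slit3 (miR-218-2), can be told apart by their 3p strands. miR-218-1-3p had 33 reads in brain and 55 in spinal cord, 2.54-fold higher (1.62 to 4.03), and miR-218-2-3p had 159 and 54 reads, 1.94-fold lower (1.41 to 2.69). The miR-218-1 strand thus took 17.2% (12.1 to 23.3) of the pair in brain and 50.5% (40.7 to 60.2) in spinal cord, and these intervals do not overlap.

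**Figure D3:**
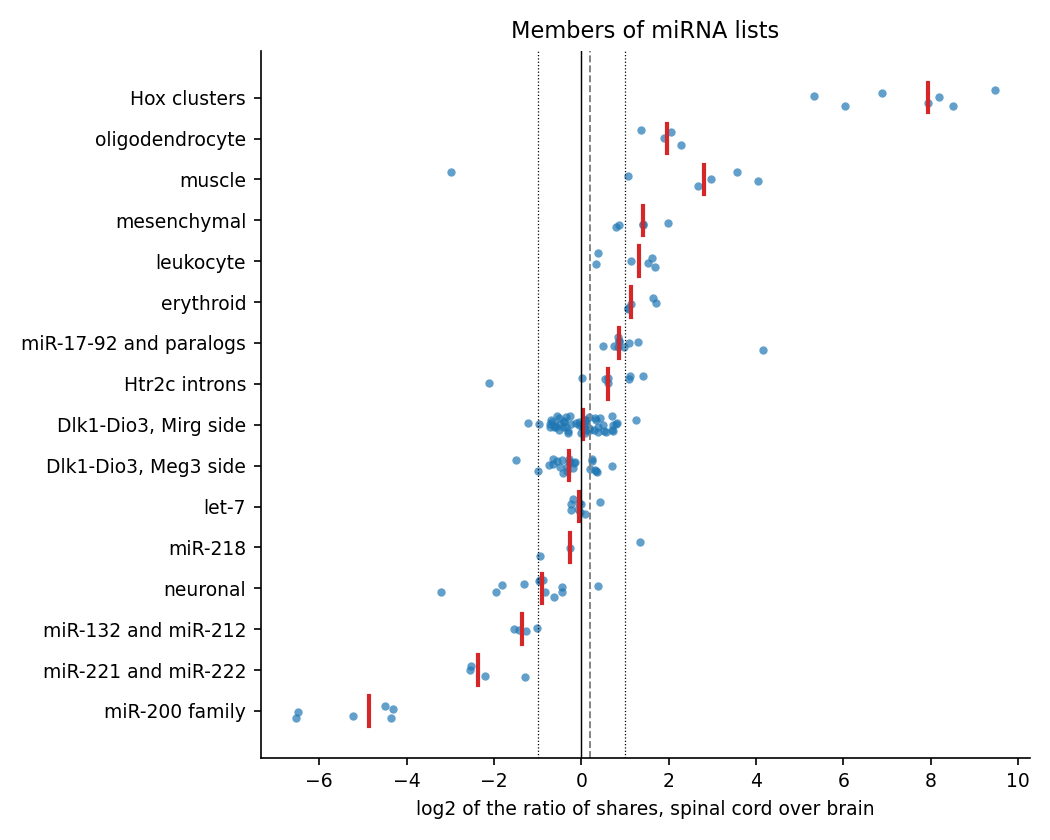
Log2 ratio of the level in spinal cord over that in brain (x axis) for each compared member (points) of 16 lists of miRNAs (y axis), with each list's median (red bar), 2-fold either way (dotted) and the median of all 511 names (dashed). The Hox list has the highest median, 7.94, and the miR-200 family the lowest, -4.85.

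The miR-200 family, known from epithelia and from olfactory neurons, was the group that was furthest below its brain level in spinal cord. Of 7 names 6 passed the limit, all 6 were at least 19.9-fold lower, and their median log2 ratio was -4.85. Over all 511 names 8.02% were at least 2-fold lower and the median was 0.20. In spinal cord miR-429-3p and miR-141-3p had 8.66 CPM and miR-200b-5p had 0.962 CPM. These names passed the limit through brain alone, which fixed their direction. Summed over the list the level was 3575 CPM in brain and 74.1 CPM in spinal cord. miR-200a-3p had 4237 reads (1340.2 CPM) in brain and 30 reads (14.4 CPM) in spinal cord, 92.8-fold lower (64.9 to 138). Its cluster neighbours on chromosome 4, miR-429-3p and miR-200b-3p, were 89.1-fold (56.2 to 151) and 37.3-fold (28.4 to 49.9) lower.

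The cluster of miR-200c and miR-141 on chromosome 6 showed the same direction, with 968 and 32 reads of miR-200c-3p (19.9-fold lower, 14.0 to 29.2) and 557 and 18 reads of miR-141-3p (20.3-fold lower, 12.8 to 34.6). miR-141-5p had 31 reads in brain and none in spinal cord, at least 6.79-fold lower against the limit of 3 reads. For the 6 names brain ranked 9 to 12 of the 15 libraries and spinal cord 14 or 15, so the brain level itself was low beside salivary gland, with 23911 CPM of miR-200a-3p, or stomach, with 34333 CPM of miR-200b-3p. miR-184-3p, abundant in epithelia of the eye, had 127 and 6 reads, 13.9-fold lower (6.22 to 38.6). It too passed the limit through brain alone (40.2 and 2.89 CPM), which fixed its direction.

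miR-221 and miR-222, which share a cluster on the X chromosome and the seed GCUACAU, were lower in spinal cord for all 4 strands under each scaling. By share of total reads 8.02% of all 511 names were at least 2-fold lower. miR-221-3p had 5979.5 CPM in brain and 1027 CPM in spinal cord, 5.82-fold lower (5.57 to 6.09). miR-222-3p had 6177 and 1065 CPM, 5.80-fold lower (5.55 to 6.06). The ratio between them was the same in both tissues within counting error, with miR-222-3p at 50.8% (50.3 to 51.3) of the pair in brain and 50.9% (49.4 to 52.4) in spinal cord.

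miR-139, from an intron of Pde2a, differed in the same way in both strands. miR-139-5p had 3227 CPM in brain and 725 CPM in spinal cord, 4.45-fold lower (4.21 to 4.70), and miR-139-3p was 4.74-fold lower (3.75 to 6.06). Among the other 13 libraries miR-139-5p reached at most 723 CPM. Brain was the highest library for 20 of the 41 lower names, against 62 of all 511, and spinal cord was the highest for 32 of the 81 higher names, against 92 of 511. The calls themselves favour such counts, since a lower name cannot peak in spinal cord nor a higher one in brain.

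miR-34a, whose gene is a target of p53, was also higher in spinal cord. miR-34a-5p had 3966 CPM in brain and 17444 CPM in spinal cord, a ratio of 4.40 (4.31 to 4.49), and its minor arm miR-34a-3p had a ratio of 4.48 (3.63 to 5.55). The 5p share of this hairpin was 99.04% in brain and 99.03% in spinal cord. Spinal cord was the highest library, above testis with 14961 CPM. The related miR-34b and miR-34c strands, known from ciliated cells, lay within 2-fold. The 4 names matched to the seed GGCAGUG, those of miR-34a, miR-34b, miR-449a and miR-449c, together held 0.411% and 1.76% of reads, and miR-34c-5p, which had no matched sequence, had 438 and 334 CPM. miR-100-5p had 1573 and 5533 CPM, a ratio of 3.52 (3.402 to 3.64), while the other 4 names of its list, miR-99a, miR-99b, miR-125a and miR-125b, lay within 2-fold. miR-215-5p had 6 reads in brain and 115 in spinal cord, a ratio of 29.2 (12.995 to 81.1), and smooth muscle held 96410 CPM of it. It passed the limit through spinal cord alone (1.90 and 55.3 CPM), which fixed its direction.

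Markers of blood, muscle and mesenchyme were also higher in spinal cord. Of 6 muscle names 5 were higher and 1 was lower, or 4 and 1 with both other scalings, where miR-133b-3p lay within 2-fold. Among the higher names, miR-1a-1-5p (1.58 and 18.8 CPM) and miR-133a-5p (1.58 and 26.0 CPM) passed the limit through spinal cord alone. The filter thus fixed their call as higher. By share of total reads 15.9% of all 511 names were higher and 8.02% lower. The list summed to 977 CPM in brain and 4873 CPM in spinal cord, within the 167 to 295480 CPM of the other 13 libraries. miR-1a-3p had 368.5 and 2867 CPM, a ratio of 7.78 (7.31 to 8.29), and miR-133a-3p had 268 and 1713 CPM, a ratio of 6.40 (5.94 to 6.91), with 174150 and 112140.0 CPM in heart. The minor arm miR-133a-5p had 5 and 54 reads, a ratio of 16.4 (6.62 to 52.6). miR-206-3p went the other way, with 740 reads in brain and 62 in spinal cord, 7.85-fold lower (6.05 to 10.3), although its hairpin and that of miR-133b lie side by side on chromosome 1. miR-133b-3p took 30.6% (27.9 to 33.5) of the reads of that pair in brain and 88.0% (84.9 to 90.7) in spinal cord.

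For the erythroid, leukocyte and mesenchymal lists too, the share over all 511 names was 15.9% higher and 8.02% lower. All 5 erythroid names were at least 2-fold higher in spinal cord, with a median log2 ratio of 1.14, but only 2 of 5 were with the TMM and DESeq2 scalings, where the median was 0.93 and 0.82. miR-451a had 6444.5 CPM in brain and 21179 CPM in spinal cord, a ratio of 3.29 (3.23 to 3.34), and the list summed to 8395 and 25359 CPM, against 5617 to 131860 elsewhere. Of 6 leukocyte names, some of which microglia also carry, 4 were higher, such as miR-142a-3p with 398 and 881 CPM and miR-223-3p with 86.4 and 267 CPM, and the list summed to 2868 and 4435 CPM, against 1995 to 270900 elsewhere. With both other scalings 3 of the 6 were higher, and miR-142a-3p lay within 2-fold. Of 5 mesenchymal names 3 were higher, and the list summed to 424 and 1070 CPM, below the 4745 to 132030 CPM of all other libraries. Some of these names may stand for 1 strand: miR-199a-3p (474 and 828 reads) and miR-199b-3p (475 and 828) have the same sequence, and miR-486a-5p (2602 and 3590 reads) and miR-486b-5p (2601 and 3581) have nearly the same counts, so the 3 called mesenchymal names hold 2 distinct strands and the sums may count such reads under both names.

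No defining marker of these 4 lists was at 0 in either library. The part of blood, muscle and mesenchyme in the higher names was not tested. Without these lists and those of vascular smooth muscle and cartilage, in the totals and among the names, 65 names were higher and 37 lower of 481. That setting was chosen after seeing the data. It drops only listed names, so it does not test the part of these tissues. Lists of endothelium (median log2 ratio 0.56), vascular smooth muscle (0.25) and cartilage (0.48) had 0 members called.

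Several groups that are common to both libraries had few or no members called, where 23.9% of all 511 names were called in either direction. The Dlk1-Dio3 locus is an imprinted region with one of the largest sets of miRNAs of the genome. Of the 96 names on its 2 lists 78 were above the limit. Of these, 1 was higher, 2 were lower and 75 lay within 2-fold, with a median log2 ratio of -0.13. With TMM 1 was higher and 4 were lower, and with DESeq2 0 and 9. The called names were miR-758-3p (ratio 2.39, 1.99 to 2.89), miR-381-3p (2.33-fold lower, 2.19 to 2.48) and miR-673-5p (2.81-fold lower, 2.19 to 3.65). The lists leave out miR-1247-5p, whose hairpin on chromosome 12 overlaps an exon of Dio3os. It was lower in spinal cord, with 74 reads in brain and 10 in spinal cord (23.4 and 4.81 CPM), and passed the limit through brain alone. The let-7 family had 0 of 9 names called (median -0.04), as did miR-29 (0 of 3, -0.27), miR-30 (0 of 5, -0.33) and miR-181 (0 of 4, 0.07, or -0.14 with TMM). Lists of 3 to 9 names are too small to tell 0 called from the share over all names. In the miR-17-92 cluster and its paralogs, known from dividing cells, 3 of 10 names were higher, with a median of 0.87 (2 of 10 and 0.65 with TMM, 1 of 10 and 0.55 with DESeq2). Of all 511 names 15.9% were higher by share of total reads, and 10 names are too few to tell these counts from that share. The largest ratio among them was that of miR-20b-5p, with 4 reads in brain and 47 in spinal cord (17.9, 6.54 to 68.3). This name passed the limit through spinal cord alone (1.27 and 22.6 CPM), which fixed its call as higher.

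Hairpins of 1 cluster, with neighbours under 10 kb apart on the same strand, can share a primary transcript. Among 28 clusters with at least 3 compared names the median range of log2 ratios within a cluster was 0.64. The median of 2 clusters (7.14%) was at least 2-fold higher, that of miR-144 and miR-451a (log2 1.64) and that of miR-15b and miR-16-2 (1.44). It was at least 2-fold lower for 4 clusters (14.3%), those of miR-200a, miR-200b and miR-429 (-5.85), miR-221 and miR-222 (-2.54), miR-195a and miR-497a (-1.52), and miR-132 and miR-212 (-1.35). Summed by seed, 57 of 361 families (15.8%) were at least 2-fold higher and 29 (8.03%) lower. The families covered 89.3% of brain and 90.9% of spinal cord reads, and miR-124-3p was not among them. The 8 families with the largest difference in share were led by miR-128-3p, miR-10b-5p, miR-338-3p, miR-9-5p, miR-26a-5p, miR-451a, miR-29a-3p and miR-34a-5p. The family of miR-26a-5p and miR-26b-5p held 6.68% of brain and 4.90% of spinal cord reads, and that of the miR-29 strands 8.08% and 6.66%.

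The 5p share of a hairpin is the part of all reads of its arms that falls on the 5p strand. It was compared for 280 hairpins with at least 20 reads in both libraries, out of 615 with both arm names. Arm usage was much alike: the absolute difference had a median of 1.03 points, and 232 hairpins (82.9%) were within 5 points. A difference of 10 points or more was found for 17 hairpins (6.07%), with 7 (2.5%) more on the 5p side in spinal cord and 10 (3.57%) more on the 3p side. Of these 17, 10 had under 100 reads in at least 1 library, and for 8 the interval of the difference excluded 0.

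**Figure D4:**
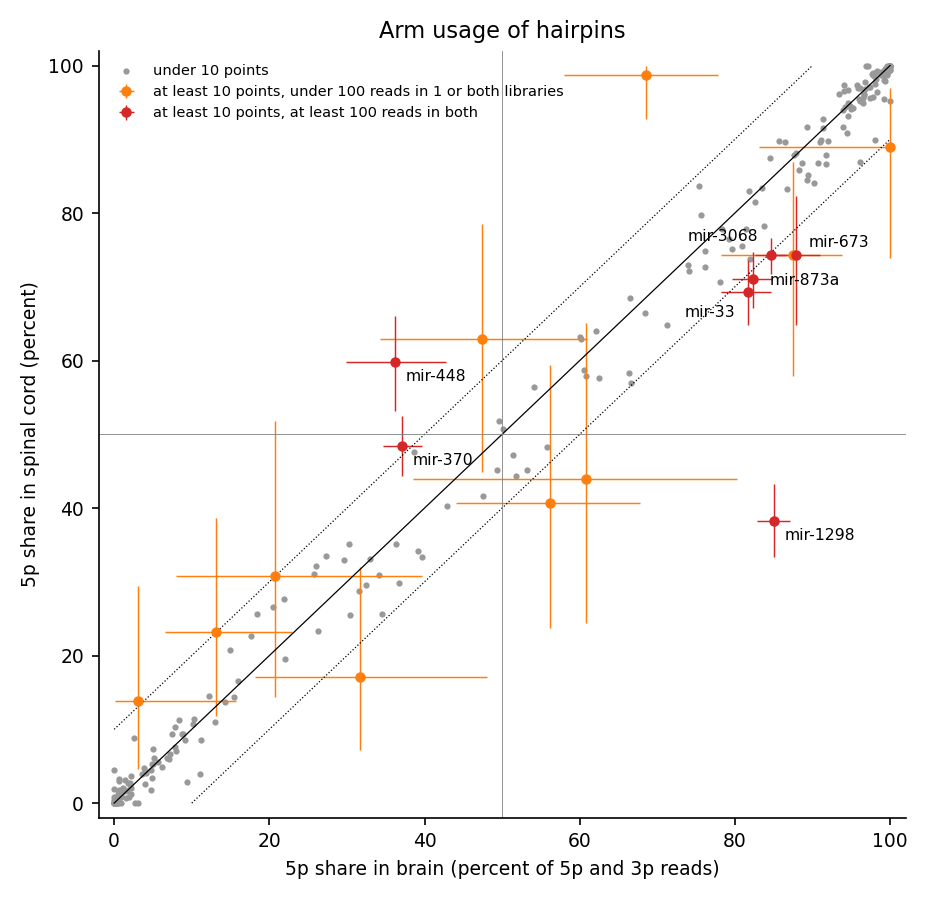
5p share of 280 hairpins in brain (x axis, percent) and in spinal cord (y axis, percent), with equal shares (solid) and 10 points either way (dotted). Coloured points differ by at least 10 points, with 95% counting intervals as bars. mir-1298 is the farthest from the line, at 85.1% and 38.2%, and mir-448 lies on the other side of it.

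Opposite arms led in 2 of 280 hairpins (0.714%), by 99% intervals wholly on either side of 50%. Both lie in introns of Htr2c, which encodes a serotonin receptor. mir-1298, at chrX:147064905-147065002 on the plus strand, had 976 reads of its 5p and 171 of its 3p arm in brain, and 148 and 239 in spinal cord. Its 5p share was 85.1% (82.9 to 87.1) in brain and 38.2% (33.4 to 43.3) in spinal cord, a difference of -46.8 points (-51.9 to -41.5). The 5p strand was 4.33-fold lower in spinal cord and the 3p strand 2.13-fold higher, or 0.87 rather than 1.09 on the log2 scale with TMM. Of 155 hairpins with both arms compared, no other had its arms at least 2-fold apart in opposite directions, and in 147 the log2 ratios of the arms were within 1 of each other.

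In the 4 other libraries with at least 20 reads of mir-1298, the 3 embryos and lung, the 5p arm took 94.8% to 98.9%. Spinal cord was thus the only one of 6 libraries in which the 3p arm led. mir-448, at chrX:147158210-147158321 on the plus strand, had 81 and 143 reads of its 5p and 3p arms in brain and 141 and 95 in spinal cord. Its 5p share was 36.2% (29.9 to 42.8) in brain and 59.7% (53.2 to 66.1) in spinal cord, a difference of 23.6 points (14.5 to 32.1). The 3p strand had nearly the same level in both, 45.2 and 45.7 CPM, and the 5p strand had 25.6 and 67.9 CPM. In the 3 embryos its 5p share was 8.33% to 14.5%.

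Of the other hairpins of the Htr2c introns, mir-764 and mir-1264 did not differ by 10 points. mir-764 had a 5p share of 36.3% (28.5 to 44.7) in brain and 35.2% (27.4 to 43.5) in spinal cord, and mir-1264 had 66.4% (60.3 to 72.1) and 58.3% (52.5 to 64.0). Of 12 strands of this gene 8 passed the limit, 3 were higher and 1 was lower, with a median log2 ratio of 0.62, and with TMM and DESeq2 only 1 was higher. Over all 511 names 15.9% were higher and 8.02% lower by share of total reads. mir-1912 had 11 reads in brain and 2 in spinal cord, too few to compare.

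**Figure D5:**
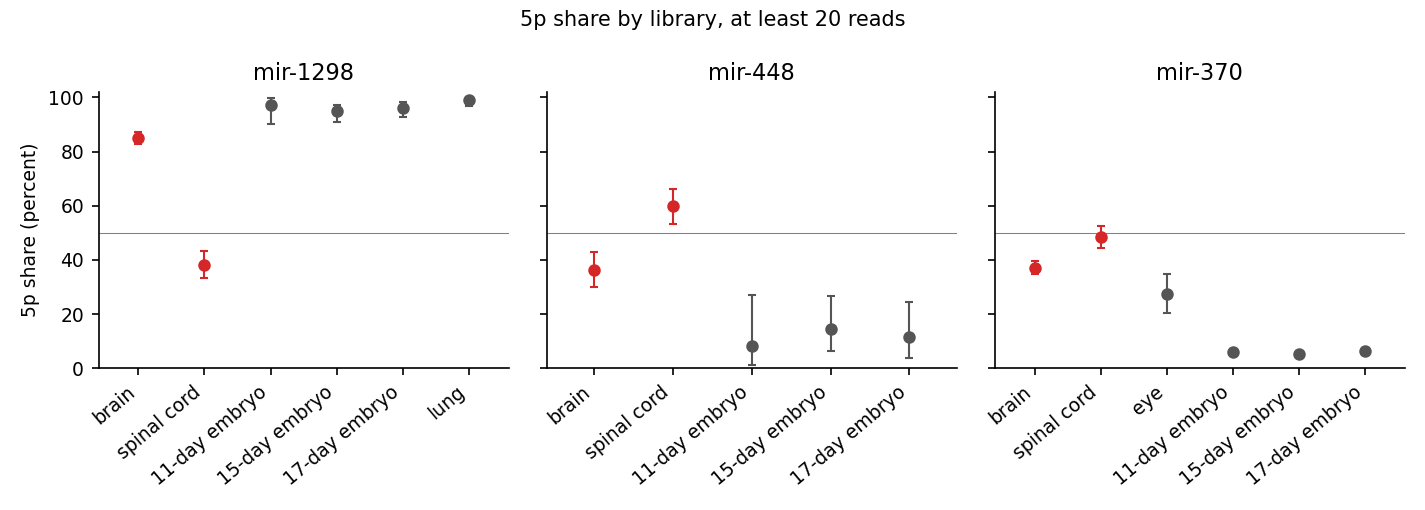
5p share (y axis, percent) of 3 hairpins in every library (x axis) that held 20 or more of their reads, with 95% counting intervals and a line at 50%; brain and spinal cord are in red. For mir-1298 only spinal cord is below 50%, and for mir-448 only spinal cord is above it.

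Of 229 hairpins with at least 100 reads in both libraries 7 differed by 10 points or more, mir-1298, mir-448 and 5 others. mir-673 went from 87.9% to 74.3% 5p, mir-33 from 81.6% to 69.3%, mir-873a from 82.3% to 71.0% and mir-3068 from 84.7% to 74.2%, all toward the 3p arm in spinal cord. mir-370, in an intron of Rian, went from 37.1% (34.6 to 39.6) to 48.4% (44.3 to 52.5), toward the 5p arm, and stood at 5.37% to 6.44% in the embryos. Of the hairpins with fewer reads, mir-467d went from 68.5% (58.0 to 77.8, 92 reads) to 98.7% (92.8 to 99.97, 75 reads), and this name is uncertain, since its family has many copies that resemble each other. For mir-669f, mir-344f, mir-670, mir-297a and mir-503, which differed by 13.1 to 16.9 points on 23 to 80 reads, the interval of the difference included 0.

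mir-324, whose arms are known to switch between tissues, did not differ by 10 points. It had 2783 reads and a 5p share of 60.0% (58.1 to 61.8) in brain, and 1297 reads and 63.1% (60.5 to 65.8) in spinal cord. The difference was 3.17 points (-0.04 to 6.34), rank 71 of the 280 hairpins by size. The other 13 libraries ran from 26.3% in stomach to 63.1% in the 17-day embryo. At the limit of 20 reads, mir-6516 (20 and 36 reads) and mir-3057 (21 and 22) were the last hairpins inside, and mir-224 (19 and 26), mir-141 (588 and 18), mir-429 (2439 and 18) and mir-1982 (23 and 18) were the first outside.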

How the data were processed

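The data are read counts per mature miRNA name in 15 libraries, deposited by the authors as whole, unnormalized counts, with names that have no read left out; these were taken as 0. Per the submitters' processing notes, the tools were bcl2fastq 1.8.4, BWA, cutadapt and bedtools, and the build was mm10. How each was set, which miRNA annotation was used and how reads from near-identical hairpins were assigned is not given in the sources used here. Small RNAs were mixed with spike-in RNAs, per the labels' protocols, but the deposited names are of mouse miRNAs, so levels are shares of a library's miRNA reads and not amounts.

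Brain and spinal cord were grouped by their tissue label. With 1 library each, no test was made. Names with a mean of at least 10 CPM were compared, and a ratio of 2 or more was called. Intervals of ratios are exact conditional binomial, those of shares Clopper-Pearson and those of differences of shares Newcombe, all at 95%. Scripts ran in Python 3.11.15 (numpy 2.4.6, scipy 1.17.1, pandas 2.3.3) and R 4.3.3, with edgeR 4.0.16 for TMM factors and DESeq2 1.42.0 for size factors. The counting of ratios and arm shares was tested on simulated data.

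The names in the text were drawn, not each one printed, from the 15 names with the largest ratio in each direction, the 10 with the largest difference in share, the 10 most abundant of each library, members of 29 lists, the 12 hairpins with the largest difference in 5p share, those with opposite leading arms, mir-324 and the 8 seed families with the largest difference in share. The members and lists were chosen with earlier results of these data known. miR-34a-3p, the shares within pairs, the Htr2c hairpins and seed families named beyond the 8 were chosen after their values were seen. Of 1558 names in the 15 libraries 1326, and of the 511 compared 434, matched a RefSeq mature sequence (GRCm38.p6); the others, such as miR-124-3p, are named only. Of the compared names 21 had counts within 1% of another name in both libraries, such as miR-199a-3p and miR-199b-3p or miR-486a-5p and miR-486b-5p, whose reads may be shared. The rule used counts alone, so it also took pairs of unlike sequence, such as miR-182-5p and miR-708-5p. Alternatives are other scalings, filters on low levels, stricter calls and other minimum reads for hairpins.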

Additional observations from a re-analysis of the deposited data

How the results depend on the processing

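Counts of called names moved with the choices that set them. With the DESeq2 size factors 49 names were higher and 65 lower. With no filter on low levels and 0.5 reads added, 336 and 121 of 1195 names were called, and with a mean of at least 100 CPM 38 and 25 of 304. When the whole 95% interval had to pass 2-fold, 50 names were higher. With TMM, without the 10 most abundant names and without names whose counts are within 1% of another, both counts stayed within 1.5 times the ones reported, as they did without the blood, leukocyte, muscle (vascular smooth muscle included), mesenchymal and cartilage lists, a setting chosen after seeing the data.

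For arm usage, a minimum of 100 reads left 2 hairpins more on the 5p side and 5 more on the 3p side, and a minimum of 10 reads gave 16 on the 3p side. When the whole interval had to pass 10 points, 2 and 1 were left. Both hairpins with opposite leading arms were kept at 100 reads, and 95% intervals added mir-431 (53.2% and 45.2% 5p). The median of the Htr2c list was -2.12 with a mean of at least 100 CPM, which leaves miR-1298-5p alone. Of the other list medians and ratios, 9 lost and 8 gained a call with TMM and 11 and 13 with DESeq2; none of these changed direction. No paired analysis was possible because each tissue has 1 library. Depth limits strands with few reads in 1 library, such as miR-196a-5p with 2 in brain, and arm shares of hairpins with under 100 reads.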
